A study of Homo sapiens with 10 samples.

Results

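The comparison is between 2 concentrations of the same inhibitor. K562 cells treated with 5 µM CBP30 were set against K562 cells treated with 2 µM CBP30, with no vehicle sample in the contrast. The samples were chosen by their labels, 2 at each concentration, which makes 4 of the 10 samples of the series. The other 6 are 2 samples with the vehicle DMSO, 2 with 2 µM I-CBP112 and 2 with 5 µM I-CBP112. All 10 are wild-type K562, an established human erythroleukaemia cell line with the BCR-ABL fusion, treated for 48 h, and the labels call the members of each pair biological replicates. Polyadenylated RNA was sequenced, and the values are FPKM, the fragments of a gene scaled to the length of its transcript and to the mapped reads of the library.

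CREBBP and EP300 are paralogous lysine acetyltransferases that transcription factors such as GATA1 and MYC bring to enhancers, where they acetylate histones. Both hold a bromodomain, a pocket that binds acetylated lysine, and CBP30 and I-CBP112 are small molecules made to occupy that pocket. Bromodomains of the BET family bind the same mark, and at higher concentrations an inhibitor of one family can reach the other. The study used 2 µM CBP30 as a concentration with little expected action on BET proteins, so the step to 5 µM shows what was added in RNA above that concentration. K562 cells express embryonic and fetal globin genes together with the erythroid factors GATA1, TAL1 and LMO2, and they depend on MYC.

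FPKM give no read counts. Library depth estimated from the smallest values of 602 genes with transcripts of at least 2000 bases and reads in only 2 to 4 of the samples ranged from 0.945 to 1.05 times the mean, and the summed FPKM ranged from 547504 to 689095, both extremes in CBP30 samples. Of the 9 genes that define K562, all 9 were expressed. Of the markers of other cells, 4 of 7 lymphoid, 1 of 6 stromal and 2 of 5 epithelial genes passed the filter on low values. They included CD3D (20.4 to 27.3 FPKM over the CBP30 samples) and EPCAM (31.8 to 56.3 FPKM), which were also present with DMSO. EPCAM fell between 2 and 5 µM by 0.58 on the log2 scale (adjusted p = 0.00503), and by 0.32 with the length trend removed. CD3E, at 1.84 to 3.31 FPKM, and COL1A1, at 1.14 to 2.02 FPKM, rose by 0.49 and 0.43, and the log2 differences of CD3D, CD3G and KRT19 (0.06, 0.28 and −0.26) were not called. With the length trend removed CD3D, CD3E and CD3G were called higher (0.41, 0.78 and 0.38), EPCAM stayed lower, and COL1A1 was not called (0.24). The part of other cells in the results was not tested.

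Replicate 1 of 2 µM CBP30 stood apart from the other libraries. When the 11743 tested genes with a known transcript length were divided into 5 equal groups by that length, its median difference from DMSO, on the scale of log2(FPKM + 1), ran from 0.32 in the group with the shortest transcripts (up to 1690 bases) to −0.30 in the group with the longest (5547 bases or more). In replicate 2 these medians were 0.02 and −0.02. Both 5 µM samples sloped the other way, from −0.14 for the shortest to 0.12 for the longest transcripts. The difference between 5 and 2 µM correlated with transcript length at 0.58, and at 0.40 without 2 µM replicate 1. The length trend was thus not confined to that replicate, and its cause was not tested. EEF1A1, the most abundant elongation factor mRNA, has a value of 0 in that replicate and of 6661, 5338 and 5489 FPKM in replicate 2 and the 5 µM samples, and no difference is drawn from it. For this reason the counts of the gene lists were also made with the length trend removed from every sample. Where a printed difference of a called gene moved by more than 1.5 times, the difference without the trend is given beside it. Differences of genes not called often lack that value. Some of them moved by more than that, such as HBA1 (−0.60 to −0.24), TET1 (0.37 to 0.03) and IGF2BP1 (0.25 to −0.07).

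A gene was called when its adjusted p was under 0.05 in a fit of all 10 samples and both 5 µM samples lay beyond both 2 µM samples. Of 12392 genes tested, 2967 fell (23.9%) and 2462 rose (19.9%) with the higher concentration. Most differences were small, with a median size of 0.23 over all genes. Among the genes called, 77 fell and 42 rose by more than 1 on the log2 scale. With the length trend removed, 2503 of 11743 genes were lower (21.3%) and 2424 higher (20.6%), of which 1822 and 1579 were called in the same direction in both fits. The counts of the gene lists below are to be read beside these shares of all genes. ARIH1 and ZC3H14, singled out after their values were seen, were called higher in the first fit and lower in the second.

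The number of calls rests on a spread that all 5 groups share. The replicates of a gene had a median SD of 0.14 (2 µM) and 0.035 (5 µM) on the log2 scale, and 0.094 and 0.035 with the length trend removed. A fit of the 4 CBP30 samples alone called 158 genes lower and 90 higher, and 940 and 875 with the length trend removed. A smaller level in bulk RNA can come from fewer cells that express a gene or from less RNA in each cell, and these cannot be told apart here.

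The 12 largest falls had at least 5 FPKM at 2 µM, and by the call none had overlapping samples. S100P, a calcium-binding protein of the S100 family on chromosome 4 (6695605 to 6698897, GRCh37), was at 7.76 and 6.97 FPKM at 2 µM and at 0.225 and 0.482 FPKM at 5 µM. The 5 µM mean was 4.80% of the 2 µM mean, with a log2 difference of −2.63 (standard error 0.11, adjusted p = 4.65e-06 by limma). With DMSO it was at 30.2 and 32.2 FPKM. FAM178B, on chromosome 2 (97541619 to 97652317), went from 51.3 and 45.3 FPKM at 2 µM to 7.27 and 6.80 FPKM at 5 µM, 14.6% of the former mean (log2 difference −2.62, standard error 0.071, adjusted p = 4.82e-07). ASS1, the argininosuccinate synthase of arginine synthesis on chromosome 9 (133320348 to 133376661), went from 27.9 and 25.7 FPKM to 4.99 and 4.52 FPKM, or 17.7% (log2 difference −2.27, standard error 0.064, adjusted p = 4.82e-07). Each of these genes had already been lower at 2 µM than with DMSO, where FAM178B was at 104 and 99.9 FPKM and ASS1 at 50.9 and 50.7 FPKM.

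MS4A3, a membrane protein of granulocyte progenitors, fell from 10.05 and 10.7 FPKM at 2 µM to 2.29 and 1.98 FPKM at 5 µM, a log2 difference of −1.86. ACSM3, a mitochondrial acyl-CoA synthetase, was the most abundant gene among the largest falls. It was at 146 and 156 FPKM at 2 µM and at 46.0 and 43.7 FPKM at 5 µM, 29.7% of the 2 µM mean (log2 difference −1.73, standard error 0.069, adjusted p = 4.65e-06), after 454 and 471 FPKM with DMSO. GAL, which encodes the neuropeptide galanin, fell from 27.2 and 18.8 FPKM to 6.44 and 7.61 FPKM. GLT25D2, a collagen galactosyltransferase, fell from 17.0 and 23.9 FPKM to 6.88 and 6.04 FPKM.

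Other falls of this size started from a different level. ATF5, a transcription factor of the ATF4 family, was at 64.4 and 67.6 FPKM with DMSO, at 62.2 and 56.05 FPKM at 2 µM and at 18.8 and 17.7 FPKM at 5 µM (log2 difference between 5 and 2 µM −1.64, standard error 0.079, adjusted p = 1.21e-05). LOC731779 was at 11.96 and 12.6 FPKM with DMSO, at 14.5 and 12.3 FPKM at 2 µM and at 1.82 and 2.05 FPKM at 5 µM. IGFL2, an insulin growth factor-like peptide gene, was at 6.79 and 8.94 FPKM with DMSO, at 43.98 and 34.6 FPKM at 2 µM and at 11.1 and 10.7 FPKM at 5 µM, so the 5 µM samples lay between those of DMSO and of 2 µM. EIF4EBP3, which binds the cap-binding protein eIF4E, had its highest values at 2 µM too, with 11.02 and 6.75 FPKM against 1.88 and 2.82 FPKM at 5 µM and 3.97 and 2.64 FPKM with DMSO. Reads of EIF4EBP3 can also come from the overlapping ANKHD1 read-through transcript. LPPR3 fell from 14.2 and 8.20 FPKM to 2.94 and 3.40 FPKM.

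Among the 12 largest rises, 6 were histone genes of the clusters on chromosome 6. HIST1H4H, a histone H4 gene, had the highest level of them, at 25.5 and 23.8 FPKM with DMSO, 139 and 126 FPKM at 2 µM and 338 and 329 FPKM at 5 µM. Its log2 difference between the concentrations was 1.32 (standard error 0.072, adjusted p = 2.14e-05). HIST1H2AI, an H2A gene, stood at 6.53 and 8.93 FPKM with DMSO, at 8.32 and 9.35 FPKM at 2 µM and at 30.1 and 31.7 FPKM at 5 µM (log2 difference 1.70, standard error 0.16, adjusted p = 0.000372). HIST1H1D, a linker histone gene, rose from 3.12 and 3.17 FPKM to 10.1 and 9.82 FPKM. The log2 differences of HIST1H2BF, HIST1H2AD and HIST1H3B were 1.44, 1.40 and 1.29. Histone genes of a class are nearly identical in their coding sequence, so single reads can be shared between them.

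The other 6 of the largest rises were in genes of different kinds. LOXL2, a lysyl oxidase that crosslinks collagen, rose from 2.81 and 2.61 FPKM at 2 µM to 10.3 and 9.89 FPKM at 5 µM, after 0.480 and 0.536 FPKM with DMSO (log2 difference 1.58, standard error 0.079, adjusted p = 1.23e-05). IL6ST, the gp130 chain shared by receptors of the interleukin 6 family, rose from 7.20 and 10.2 FPKM to 23.1 and 23.7 FPKM (log2 difference 1.35, standard error 0.13, adjusted p = 0.000372). S1PR3, a receptor for sphingosine 1-phosphate, rose from 1.94 and 2.67 FPKM to 6.85 and 6.76 FPKM. AIM1 rose from 4.32 and 4.53 FPKM to 12.95 and 12.86 FPKM, and LOC100132741 from 2.86 and 2.23 FPKM to 12.15 and 12.44 FPKM. ZBED6, which lies inside the ZC3H11A gene and can share its reads, went from 2.97 and 7.90 FPKM to 13.9 and 12.3 FPKM, a rise whose 2 µM samples differed widely. Of these 24 genes 21 were also called in the fit of the 4 CBP30 samples alone, all except EIF4EBP3, LPPR3 and ZBED6. The genes were chosen by the difference between these same samples, so that fit is no independent check.

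**Figure D1:**
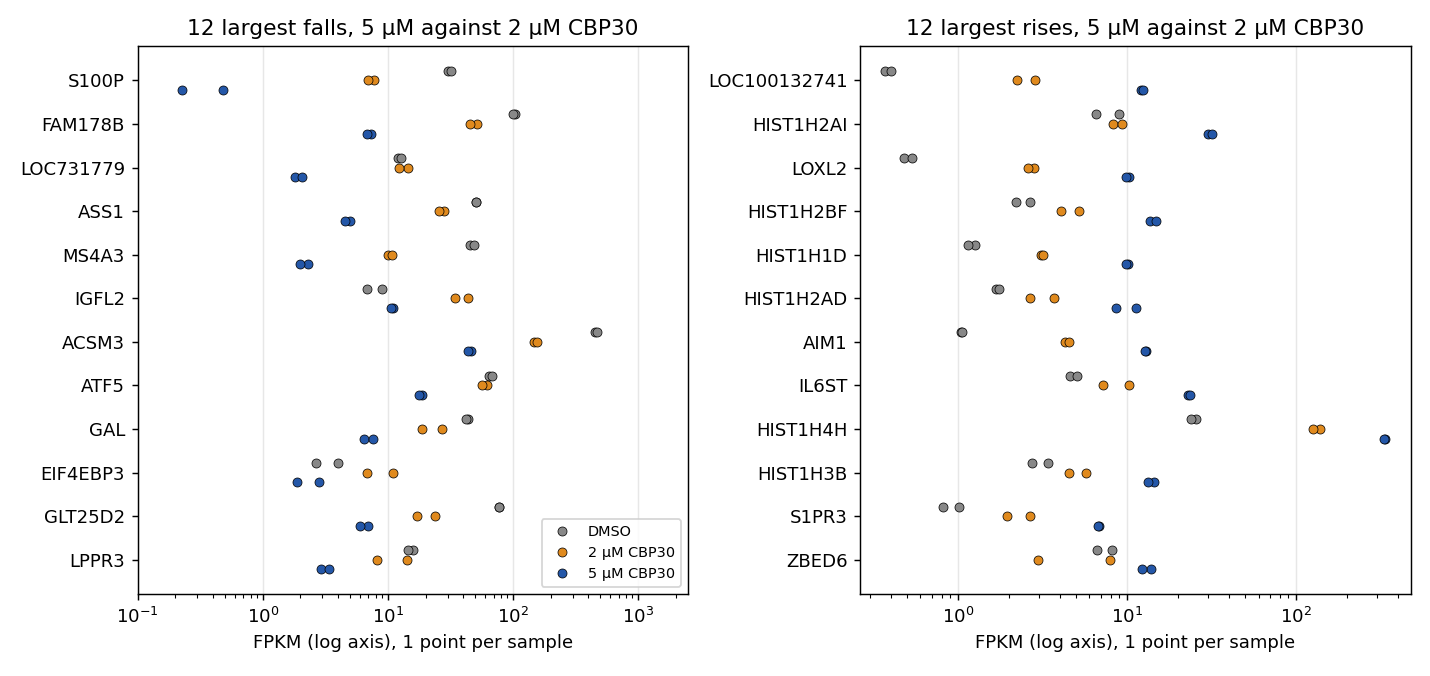
FPKM (horizontal log axis) of the 12 genes with the largest fall (left) and the 12 with the largest rise (right) from 2 to 5 µM CBP30, with 1 point per sample for DMSO (grey), 2 µM (orange) and 5 µM (blue). The blue points of each gene lie apart from its orange ones, and for S100P they drop below 0.5 FPKM.

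The promoters of 4 of these genes are shown because they carry the largest fall, the rise to the highest level and the motif matches found among the falls. They are the 250 bases before the transcription start from RefSeq on GRCh38.p14, 5′ to 3′ on the strand of the gene, with capitals where a script found CACGTG, the E-box bound by MYC and MAX, or TGATAA or AGATAA, the WGATAA sites bound by GATA factors, on either strand. S100P is on the plus strand at chr4:6693628-6693877, MS4A3 on the plus strand at chr11:60056415-60056664, EIF4EBP3 on the plus strand at chr5:140547412-140547661, and HIST1H4H on the minus strand at chr6:26285535-26285784.
S100P: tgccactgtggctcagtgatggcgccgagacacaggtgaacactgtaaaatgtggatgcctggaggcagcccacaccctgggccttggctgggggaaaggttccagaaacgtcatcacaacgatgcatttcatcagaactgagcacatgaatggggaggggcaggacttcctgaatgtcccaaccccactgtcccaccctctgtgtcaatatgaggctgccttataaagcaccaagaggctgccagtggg
MS4A3: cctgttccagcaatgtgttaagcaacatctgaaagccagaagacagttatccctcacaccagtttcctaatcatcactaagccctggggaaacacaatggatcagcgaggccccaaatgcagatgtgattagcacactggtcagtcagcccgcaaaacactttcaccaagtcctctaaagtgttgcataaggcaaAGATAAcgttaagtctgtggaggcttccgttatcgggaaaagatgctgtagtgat
EIF4EBP3: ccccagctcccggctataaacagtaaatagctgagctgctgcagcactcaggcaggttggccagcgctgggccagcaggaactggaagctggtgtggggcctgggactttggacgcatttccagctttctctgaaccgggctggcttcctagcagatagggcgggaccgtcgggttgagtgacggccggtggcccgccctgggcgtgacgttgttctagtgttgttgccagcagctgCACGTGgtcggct
HIST1H4H: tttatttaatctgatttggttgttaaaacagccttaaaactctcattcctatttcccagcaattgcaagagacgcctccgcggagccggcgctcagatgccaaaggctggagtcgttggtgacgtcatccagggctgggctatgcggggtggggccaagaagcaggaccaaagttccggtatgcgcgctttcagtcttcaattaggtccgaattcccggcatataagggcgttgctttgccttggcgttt
MS4A3 held AGATAA beginning 55 bases before its start and EIF4EBP3 held CACGTG beginning 13 bases before its start, while neither motif was in the windows of S100P and HIST1H4H. Among the rises ZBED6 held CACGTG 113 bases before its start. Of the genes called lower in both fits 1476 had a promoter in the table, and 177 of them (11.99%) held CACGTG, against 108 of 1270 (8.50%) of those called higher in both and 6.49% of all 27305 promoters in the table. TGATAA or AGATAA was in 6.78% of the promoters of the lower genes, in 7.56% of those of the higher genes and in 14.9% of all promoters. The table's promoters include those of genes not expressed in K562, a promoter was found for only 77.0% of the genes tested, and a match of letters is not a binding site.

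The erythroid transcription factors, which hold the red cell programme in place, were lower on the whole at 5 µM. Of 13 tested, 8 fell and 2 rose, with a median log2 difference of −0.41 against −0.03 for all genes, and with the length trend removed 7 fell and 2 rose (median −0.36). KLF1, the factor that switches on adult globin and red cell genes, was at 25.85 and 18.5 FPKM at 2 µM and at 8.40 and 8.49 FPKM at 5 µM (log2 difference −1.28, standard error 0.13, adjusted p = 0.000406). LMO2, the bridging protein of the GATA1 and TAL1 complex, fell from 20.6 and 17.7 FPKM to 8.23 and 7.69 FPKM (log2 difference −1.16, standard error 0.074, adjusted p = 5.69e-05). GFI1B, a repressor needed for red cell and platelet formation, fell from 14.35 and 11.8 FPKM to 6.57 and 6.53 FPKM. GATA1 itself was at 170 and 171 FPKM with DMSO, at 105 and 85.3 FPKM at 2 µM and at 53.5 and 52.7 FPKM at 5 µM, so that the 5 µM mean was 55.7% of the 2 µM mean (log2 difference −0.82, standard error 0.096, adjusted p = 0.000749). The members that rose, TAL1 (0.40) and SOX6 (0.61, or 0.29 with the length trend removed), are named because they went against the rest, after their values were seen.

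Genes of the red cell product moved less uniformly. Of 8 globin genes tested 3 fell (37.5%) and 1 rose (12.5%), beside 23.9% and 19.9% of all genes. With the length trend removed 3 fell and 3 rose, beside 21.3% and 20.6% of all genes. The median of the list moved from −0.53 to −0.16 with that correction, and globin transcripts are short, with a median of 586.5 bases against 3162 for all genes. The 4 globins named below had the largest differences by size, all of them negative, and those that rose are not named. HBZ, the embryonic zeta globin, was at 174.5 and 111 FPKM at 2 µM and at 80.7 and 88.4 FPKM at 5 µM (log2 difference −0.71, standard error 0.18, adjusted p = 0.0147, and −0.36 with the length trend removed), after 630 and 589 FPKM with DMSO. HBE1, the embryonic epsilon globin, fell from 165 and 123 FPKM to 92.8 and 91.5 FPKM (−0.62, and −0.26 with the length trend removed). HBQ1 fell by 1.00 on the log2 scale (0.63 with the length trend removed), while HBA1 had a difference of −0.60 that was not called (adjusted p = 0.0702), and HBA1 and its neighbour HBA2 share nearly all of their sequence. Among 9 enzymes of heme synthesis 2 fell, a share of 22.2% beside 23.9% of all genes, and 1 rose, with the same counts when the length trend was removed. UROD and PPOX fell by 0.76 and 0.47 (0.45 and 0.24 with the length trend removed), and ALAD rose by 0.23. The red cell membrane list held 6 falls (37.5%) and 3 rises (18.75%) among 16 genes, beside 23.9% and 19.9% of all genes. The counts were the same when the length trend was removed, with 5 called lower and 2 called higher in both fits. GYPB and GYPC, which encode glycophorins, fell by 1.02 and 0.97 (0.66 and 0.64 with the length trend removed), ADD2, an adducin chain, fell by 0.65 (0.98), and EPB41, the band 4.1 protein, rose by 0.92 from 50.9 and 79.8 FPKM to 123 and 121 FPKM. In iron handling 3 of 12 fell and 2 rose (shares near the 23.9% and 19.9% of all genes), and 3 fell and 4 rose with the length trend removed. Among them were TFR2, a transferrin receptor (−0.43), STEAP3, an iron reductase (−0.47), SLC25A38, a mitochondrial carrier (−0.48, or −0.30 with the length trend removed), and IREB2, an iron-responsive RNA-binding protein (0.46, or 0.24).

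Myeloid genes, which include S100P and MS4A3, fell in 7 of 9 cases tested with none higher (5 lower and 1 higher with the length trend removed). PRG2, the eosinophil major basic protein, fell from 2.03 and 1.63 FPKM to 0.883 and 0.776 FPKM, and AZU1, at 1.87 and 0.718 against 0.671 and 0.297 FPKM, was not called. Of 4 megakaryocyte genes tested, GP1BB fell from 131 and 67.0 FPKM to 45.1 and 46.1 FPKM, ITGA2B fell by 0.39, THBS1 rose by 0.37 only without the length correction (0.08 with it), and GP6 was not called (−0.18).

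MYC, the transcription factor that drives growth and ribosome production, was lower at the higher concentration. MYC was at 338 and 320 FPKM with DMSO, at 148 and 146 FPKM at 2 µM and at 81.7 and 80.9 FPKM at 5 µM. The 5 µM mean was 55.3% of the 2 µM mean, with a log2 difference of −0.85 (standard error 0.061, adjusted p = 0.000106), and −0.88 with the length trend removed. PVT1, the non-coding RNA gene beside MYC, fell from 12.03 and 9.83 FPKM to 3.78 and 4.003 FPKM (log2 difference −1.28, standard error 0.090, adjusted p = 9.72e-05). MYCL1, a paralogue of MYC, fell from 6.86 and 6.30 FPKM to 2.59 and 2.425 FPKM, and MXD1, an antagonist that competes for MAX, rose from 5.78 and 7.25 FPKM to 10.1 and 9.67 FPKM. In the whole network of 12 tested genes 5 fell (41.7%) and 3 rose (25%), beside 23.9% and 19.9% of all genes. With the length trend removed 5 fell and 1 rose.

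Cytosolic ribosomal protein genes were nearly all lower. All 77 called of 80 cytosolic ribosomal protein genes were lower and none was higher, with a median log2 difference of −0.58. These transcripts are short (median 827 bases), and with the length trend removed 73 were lower and none higher, with a median of −0.27. The 2 µM replicates differed here, since the median was −0.76 against replicate 1 and −0.38 against replicate 2. Against DMSO the median of the list was 0.19 at 2 µM and −0.40 at 5 µM. RPL13A was at 1334 and 1338 FPKM with DMSO, at 1875 and 1333 FPKM at 2 µM and at 861 and 855.5 FPKM at 5 µM. RPS19, RPS21 and RPS9 showed falls of 0.87, 0.83 and 0.81 (0.68, 0.44 and 0.45 with the length trend removed).

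Of 35 genes of ribosome biogenesis, which make and fold the ribosomal RNA, 25 fell and none rose (median −0.30), and 26 of 34 fell with the length trend removed (median −0.26). NOP16 fell from 40.6 and 35.1 FPKM to 21.8 and 22.01 FPKM, RRP9 from 26.1 and 20.4 FPKM to 13.8 and 13.7 FPKM, and PPAN from 27.9 and 22.8 FPKM to 15.3 and 15.3 FPKM. NHP2, a protein of the H/ACA particles, fell by 0.68 (0.32 with the length trend removed). Of 41 translation factors 27 fell and 2 rose, and 26 fell and 2 rose with the length trend removed. EIF4EBP1, a repressor of cap-dependent translation, fell from 243.5 and 174.5 FPKM to 92.1 and 90.6 FPKM (log2 difference −1.17, standard error 0.13, adjusted p = 0.000664). EEF1B2 and EIF3F fell by 0.71 and 0.71 (0.36 and 0.96 with the length trend removed).

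Genes under the stress factor ATF4, which supply amino acids and their transport when translation is held back, were mostly lower. Of 20 tested 16 fell and 1 rose, with a median log2 difference of −0.66, and 16 of 19 fell and 1 rose with the length trend removed (median −0.46). ASNS, the asparagine synthetase, was at 459 and 462 FPKM with DMSO, at 512 and 472 FPKM at 2 µM and at 242 and 228 FPKM at 5 µM (log2 difference −1.06, standard error 0.079, adjusted p = 0.000108). TRIB3, a pseudokinase induced by ATF4, went from 181 and 141 FPKM at 2 µM to 65.3 and 63.9 FPKM at 5 µM, 40.1% of the 2 µM mean (adjusted p = 0.000149), and was at 196 and 192 FPKM with DMSO. PHGDH, the first enzyme of serine synthesis, was at 216 and 217 FPKM with DMSO, at 316 and 244 FPKM at 2 µM and at 136 and 131 FPKM at 5 µM. STC2, a secreted glycoprotein, fell from 7.14 and 8.67 FPKM to 3.29 and 3.37 FPKM. The median of the list against DMSO was −0.01 at 2 µM and −0.54 at 5 µM, values that share the 2 µM samples with the comparison between the concentrations. ATF3 was the member that rose, by 0.25 (0.45 with the length trend removed), and is named for that after its value was seen.

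Aminoacyl-tRNA synthetases, many of which ATF4 also regulates, fell in 15 of 20 cases with none higher (median −0.35), and in 12 of 16 with the length trend removed. WARS fell from 298 and 312 FPKM to 207 and 197 FPKM, CARS from 84.0 and 77.7 FPKM to 55.4 and 53.4 FPKM, SARS by 0.64 and FARSA by 0.53 (0.31 with the length trend removed). Chaperones fell in 13 of 23 cases (56.5%) and rose in 1 (4.35%), beside 23.9% and 19.9% of all genes. The counts were 12 and 1 after the length correction. HSPA9, the mitochondrial HSP70, fell from 275 and 274 FPKM to 188 and 187 FPKM, a difference of −0.54 that was larger with the length trend removed (−0.64). HSPA5 of the endoplasmic reticulum and CCT8 of the chaperonin ring fell by 0.43 and 0.48, and HSPB1 by 0.66, where CCT8 and HSPB1 fell by 0.27 and 0.31 with the length trend removed.

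**Figure D2:**
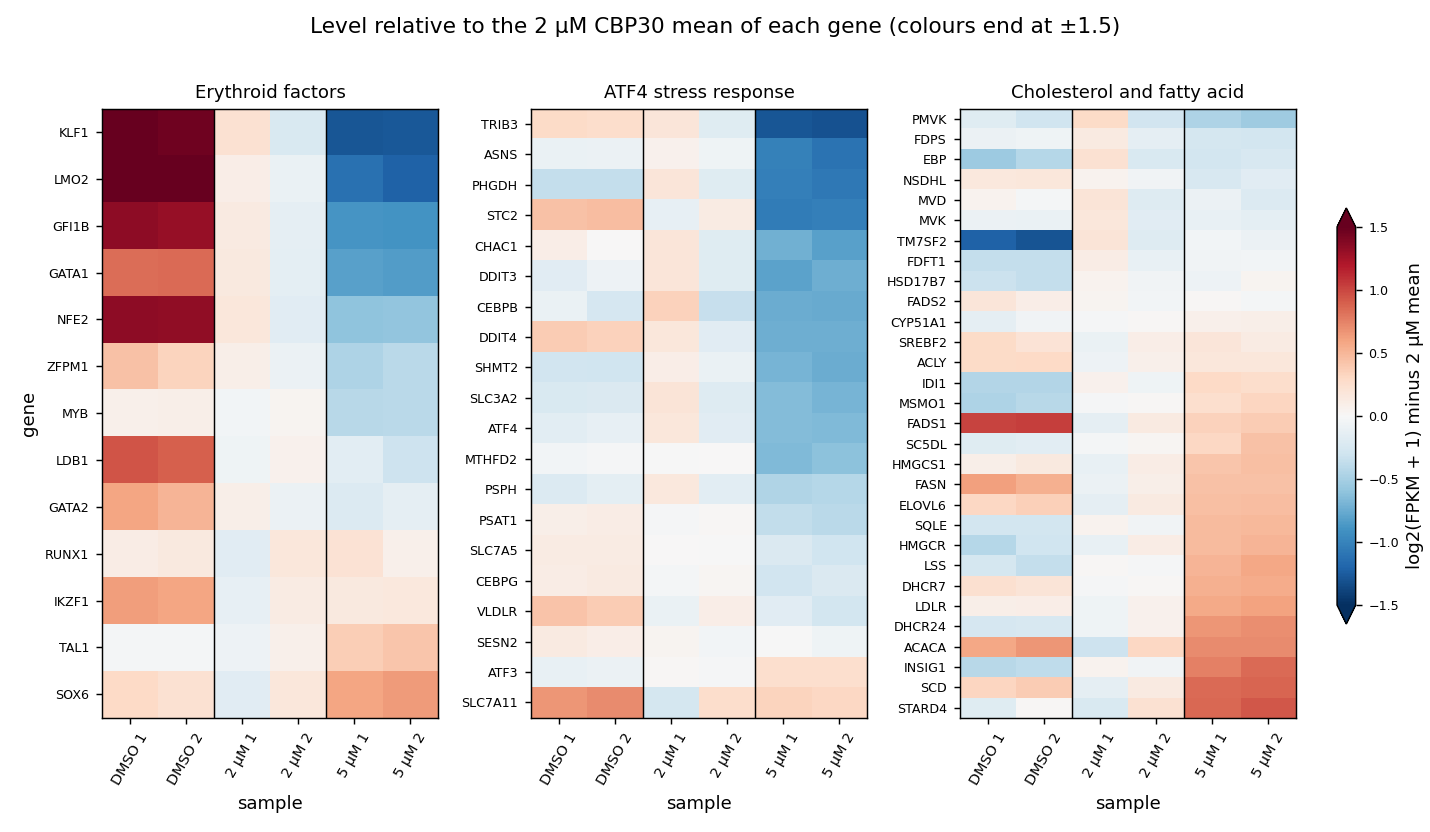
Colour gives log2(FPKM + 1) in each DMSO, 2 µM and 5 µM CBP30 sample (columns) minus the 2 µM mean of the gene, for every tested member (rows) of 3 gene lists, with blue lower and red higher and colours ending at 1.5 in either direction. KLF1, LMO2 and GATA1 step down from DMSO to 2 µM to 5 µM, ASNS, PHGDH and ATF4 are near or below the 2 µM level with DMSO and lower at 5 µM, and the lower rows of the lipid panel turn red at 5 µM.

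Genes of cholesterol and fatty acid synthesis, which the SREBP factors regulate together, went the opposite way. Of 30 tested 18 rose and 2 fell (median 0.33), and 17 rose and none fell with the length trend removed (median 0.23). INSIG1, the sterol sensor partner of SREBP processing, was at 19.5 and 19.98 FPKM with DMSO, at 27.5 and 25.4 FPKM at 2 µM and at 45.5 and 48.3 FPKM at 5 µM (log2 difference between 5 and 2 µM 0.80, standard error 0.062, adjusted p = 0.000116). SCD, the stearoyl-CoA desaturase, rose from 102 and 124 FPKM to 203 and 207 FPKM, with 141 and 147 FPKM in DMSO. STARD4, a cholesterol carrier, rose from 12.8 and 17.9 FPKM to 28.5 and 29.7 FPKM. ACACA, the acetyl-CoA carboxylase of fatty acid synthesis, rose from 8.33 and 13.4 FPKM to 18.01 and 18.01 FPKM, and its difference of 0.71 was 0.37 with the length trend removed.

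MAPK feedback and NRF2 genes were more often higher than lower. Of 10 genes of MAPK feedback, the inhibitors and targets of ERK signalling, 8 rose and 1 fell, and 7 rose and 1 fell with the length trend removed. SPRY4 rose from 20.4 and 24.7 FPKM to 35.1 and 36.0 FPKM and PHLDA1 from 3.48 and 3.73 FPKM to 5.70 and 6.52 FPKM, SPRED2 rose by 0.40, and ETV4, an ETS factor, fell by 0.45 (0.30 with the length trend removed). In the list of AP-1 and immediate early genes 4 of 11 fell (36.4%) and 2 rose (18.2%), beside 23.9% and 19.9% of all genes. With the length trend removed 3 fell and 3 rose. JUN rose from 13.8 and 11.01 FPKM to 24.5 and 24.7 FPKM (log2 difference 0.94, standard error 0.11, adjusted p = 0.000788) while FOSL1, another AP-1 subunit, fell from 3.32 and 2.29 FPKM to 1.35 and 1.12 FPKM (log2 difference −0.76). FOSL2 rose by 0.61 (0.37 with the length trend removed) and MAFF fell by 0.48. NRF2 targets of the antioxidant response rose in 4 of 7 cases with none lower, and in 6 of 7 with the length trend removed. GCLM, a subunit of the enzyme that makes glutathione, rose from 18.2 and 20.2 FPKM to 27.3 and 28.2 FPKM, NQO1 rose by 0.43, TXNRD1 by 0.33 and GCLC by 0.32.

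Lysosomal genes rose in 9 of 25 cases (36%) and fell in 3 (12%), beside 19.9% and 23.9% of all genes. With the length trend removed 12 of 24 rose and 1 fell, beside 20.6% and 21.3% of all genes. The genes named here were among those with the largest differences by size, and the 3 that fell are not named. TPP1, a lysosomal peptidase, rose from 30.8 and 36.7 FPKM to 53.5 and 53.5 FPKM (log2 difference 0.65), LAMP2 rose by 0.52 (0.28 with the length trend removed) and NPC2 by 0.42 (0.77). Actin genes rose in 5 of 23 cases (21.7%, near the 19.9% of all genes) and fell in 1, and 9 rose and none fell with the length trend removed. FLNA, which crosslinks actin filaments, rose from 35.4 and 42.5 FPKM to 75.7 and 74.2 FPKM (log2 difference 0.93, standard error 0.082, adjusted p = 0.000253), VCL, the vinculin of adhesion sites, rose from 34.95 and 48.1 FPKM to 68.4 and 69.8 FPKM, and the changes of TPM2 (−0.41) and MYH9 (0.32) were not called with the length trend removed (−0.10 and 0.04). Of 20 glycolysis genes 5 fell and 5 rose (25% each), near the 23.9% and 19.9% of all genes. With the length trend removed 5 fell and 11 rose, beside 21.3% and 20.6% of all genes. PKM2, the pyruvate kinase, rose from 391 and 308 FPKM to 561.6 and 565 FPKM, ENO2 rose by 0.42, and PFKL and PFKP, chains of phosphofructokinase, fell by 0.40 and 0.37.

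The falls among cell cycle genes were near the share of all genes or depended on the length correction. Rises among DNA replication and mitosis genes were below the shares of all genes (19.9%, and 20.6% with the length trend removed). Among 20 genes of the G1 phase, 3 fell (15%) and 5 rose (25%), and 6 fell and 6 rose with the length trend removed. In both fits 3 were called lower and 3 higher. CDKN1A, the p21 inhibitor of cyclin-dependent kinases, was at 5.198 and 5.91 FPKM with DMSO, at 11.3 and 8.91 FPKM at 2 µM and at 17.0 and 18.3 FPKM at 5 µM (log2 difference 0.75, standard error 0.13, adjusted p = 0.00355). RB1, the retinoblastoma protein, rose by 0.52, CCNE1, cyclin E1, fell by 0.44, and CDKN1C, the p57 inhibitor, fell by 0.60 (0.24 and 0.37 with the length trend removed). Of 39 DNA replication genes 9 fell (23.1%, near the 23.9% of all genes) and 2 rose (5.13%), and 8 fell and 3 rose with the length trend removed. CDT1, which licenses replication origins, fell from 160 and 128 FPKM to 78.4 and 78.3 FPKM (log2 difference −0.86, standard error 0.10, adjusted p = 0.000755). RFC4 and CDC45 fell by 0.44 and 0.37 (0.15 and 0.16 with the length trend removed), and RPA3 was not called (−0.41, adjusted p = 0.0569). Of 27 genes of mitosis 11 fell (40.7%) and 3 rose (11.1%), and 5 fell and 3 rose with the length trend removed. AURKB, the Aurora B kinase, fell by 0.45 (0.14 with the length trend removed) and UBE2C, at 0.543 to 1.56 FPKM, by 0.47, with the fall of UBE2C not called after the length correction (−0.12). MKI67, which has a very long transcript, was at 7.95 and 14.4 FPKM at 2 µM and at 18.4 and 18.4 FPKM at 5 µM, a rise of 0.72 (0.35 with the length trend removed), and CENPF (0.39) was not called.

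Nucleotide synthesis fell in 11 of 16 cases with none higher, and in 11 with 1 higher after the length correction. IMPDH2, the enzyme that commits purines to guanine nucleotides, fell from 196 and 163 FPKM to 114 and 115 FPKM (−0.63, and −0.39 with the length trend removed), DHODH of pyrimidine synthesis fell by 0.49, ADSL by 0.43 and NME1 by 0.42, the last not called with the length trend removed (−0.08). Oxidative phosphorylation depended on the correction. Of 80 genes, 30 fell (37.5%) and none rose (median −0.31), beside 23.9% and 19.9% of all genes. With the length trend removed 23 of 79 fell and 9 rose (median −0.06), beside 21.3% and 20.6% of all genes. Only 16 were called lower in both fits. COX7A2L and NDUFV1 fell in both fits (−0.72 and −0.69, then −0.56 and −0.43 with the length trend removed), as did ATP5D (−0.86, then −0.53), while UQCRHL (−0.79, then −0.41) did so only in the first.

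The BCL2 family held 3 falls (30%) and 5 rises (50%) among 10 genes, beside 23.9% and 19.9% of all genes. BCL2L11, which encodes BIM, rose from 28.3 and 32.5 FPKM to 46.7 and 47.6 FPKM (log2 difference 0.62, standard error 0.075, adjusted p = 0.000865), whereas BBC3, which encodes PUMA, fell from 31.7 and 23.1 FPKM to 16.6 and 15.6 FPKM. All of these promote apoptosis, as do BID (−0.42, or −0.25 with the length trend removed) and BAX (−0.41, or −0.05 and not called with the length trend removed). Among 16 interferon response genes 4 fell (25%, near the 23.9% of all genes) and 2 rose (12.5%, beside 19.9%). With the length trend removed 3 fell and 5 rose. IFITM1 and IFITM2 fell by 0.53 and 0.66 (0.17 and 0.33 with the length trend removed), and ISG15, at 32.9 and 18.1 against 16.2 and 13.5 FPKM, was called lower only without the length correction.

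A list of genes that BET inhibitors are known to raise was made of HEXIM1, SERPINI1 and 5 histone genes. Action of CBP30 on BET proteins was not tested. Of the 7, 5 rose and none fell (median 0.40), and all 7 rose with the length trend removed (median 0.71). HEXIM1, the inhibitor of the elongation kinase P-TEFb, was at 8.98 and 9.14 FPKM with DMSO, at 13.7 and 12.3 FPKM at 2 µM and at 16.0 and 16.0 FPKM at 5 µM (log2 difference between 5 and 2 µM 0.28, standard error 0.072, adjusted p = 0.0154). SERPINI1, neuroserpin, went from 3.42 and 4.04 FPKM with DMSO to 5.24 and 6.01 FPKM at 2 µM and 8.25 and 7.91 FPKM at 5 µM. HIST2H2BE was at 15.2 and 16.8 FPKM with DMSO, at 61.9 and 56.1 FPKM at 2 µM and at 89.7 and 89.2 FPKM at 5 µM (log2 difference 0.59). HIST1H2BJ went from 165 and 140 FPKM at 2 µM to 265 and 272 FPKM at 5 µM, and HIST1H2BD from 147 and 118 FPKM to 170 and 178 FPKM. HIST1H1C, at 2606 and 1733 FPKM against 1988 and 2036 FPKM, and HIST1H2BK, at 3454 and 2621 FPKM against 3047 and 3070 FPKM, had 5 µM samples between the 2 µM samples and were called higher only with the length trend removed (0.28 and 0.40). The median of the list against DMSO was 1.54 at 2 µM and 1.56 at 5 µM. Between 2 and 5 µM I-CBP112 the median difference of the list was 0.57, with HIST2H2BE the 1 member of 7 called (adjusted p = 0.0299). None of the 7 passed the test of a difference between the inhibitors in that step, which does not show that the steps were alike.

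Because histone genes led the rises, all genes with HIST cluster symbols were counted after the values had been seen. Of 46 tested, 25 rose and 1 fell, with a median log2 difference of 0.51, and with the length trend removed 32 of 40 rose and 1 fell (median 0.78). The gene that fell was HIST3H2A, from 108 and 76.5 FPKM to 40.3 and 48.8 FPKM (−1.02, and −0.64 with the length trend removed). Most histone mRNAs of the S phase end in a stem-loop without a poly(A) tail, and the libraries were made from polyadenylated RNA, so the values cover the polyadenylated share of these transcripts.

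The genes for the targets of the inhibitors and for related enzymes had long transcripts and followed the length trend in part. EP300 was at 3.92 and 7.66 FPKM at 2 µM and at 10.7 and 10.2 FPKM at 5 µM (log2 difference 0.81, standard error 0.21, adjusted p = 0.0151), and 0.50 with the length trend removed (adjusted p = 0.0140). CREBBP, at 4.67 and 7.35 against 9.10 and 8.67 FPKM, was higher by 0.52 (adjusted p = 0.0265) but by 0.17 without the trend (adjusted p = 0.113). KAT6A, another acetyltransferase, rose by 0.89, and the coactivators NCOA1 and NCOA2 by 0.74 and 0.73 (0.56, 0.47 and 0.42 with the length trend removed). Of the 27 acetyltransferase, deacetylase and BET genes tested, 7 fell (25.9%) and 9 rose (33.3%), beside 23.9% and 19.9% of all genes. With the length trend removed 8 fell and 10 rose, of which 4 and 8 did so in both fits.

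Among the other genes that the study names, MYB, a progenitor transcription factor, fell from 113 and 121 FPKM to 87.3 and 88.3 FPKM (log2 difference −0.41, standard error 0.059, adjusted p = 0.00187). CCND1, cyclin D1, was at 1.01 and 0.990 FPKM and at 0.673 and 0.750 FPKM, and was called lower only with the length trend removed (−0.30, adjusted p = 0.0354). TET1 (0.37, adjusted p = 0.0589) was not called in either fit, and HMGA2, at 0.0374 to 0.206 FPKM, was not tested. HMGA1 fell from 514 and 459 FPKM to 321 and 313 FPKM, and the oncofetal RNA-binding genes IGF2BP1, LIN28B and IGF2BP3 had differences of 0.25, 0.21 and 0.20 that were not called. Of the reference genes, GAPDH was at 1738 and 1473 FPKM and at 1485 and 1481 FPKM (−0.11), and ACTB at 1890 and 1465 FPKM and at 1753 and 1792 FPKM (0.09), neither called, but with the length trend removed both were called higher (0.19 and 0.31). TBP fell by 0.21 (adjusted p = 0.0249), a difference that was 0.00077 with the length trend removed.

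The same step of concentration in the other inhibitor served as a comparison that shares no sample with CBP30. The paper calls I-CBP112 less potent, so equal concentrations need not be equal in effect. Calls for I-CBP112 also rest on the spread shared by all 5 groups. Replicates correlated at 0.987 at 2 µM CBP30 and at 0.997 to 0.998 in the other groups. Between 2 and 5 µM I-CBP112, 3 genes were called, all higher (HIST1H4H, HIST2H2BE and HIST1H2BC, the last outside the naming rule), and 708 genes had an unadjusted p under 0.05 against 6607 with CBP30. The median size of the difference was 0.066 with I-CBP112 and 0.23 with CBP30. When the steps were compared gene by gene, 724 of 12392 genes (5.84%) had a more negative and 455 (3.67%) a more positive step with CBP30, and 851 and 673 with the length trend removed. The total of 1179 was 703 with a replicate block, 55 without 5 µM CBP30 replicate 2, 62 without 5 µM CBP30 replicate 1, 2963 without 2 µM CBP30 replicate 1, 7176 without 2 µM CBP30 replicate 2, 253 without a DMSO sample and 59 to 96 without an I-CBP112 sample. Of the 24 genes with the largest changes, 21 differed in this test. They were chosen by their CBP30 difference, which is part of this test, so the count is no separate support. For MYC the I-CBP112 samples were at 241 and 231 FPKM at 2 µM and at 210 and 201 FPKM at 5 µM, and its step with CBP30 was more negative by 0.65 (adjusted p = 0.00804). For GATA1 the values were 138 and 151 FPKM, then 139 and 130 FPKM, and the step differed by −0.72 (adjusted p = 0.0228). Of the ATF4 list 12 of 20 genes had a more negative step with CBP30, among them ASNS, where I-CBP112 gave a difference of 0.01. Of the cytosolic ribosomal protein genes 17 of 80 did so.

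**Figure D3:**
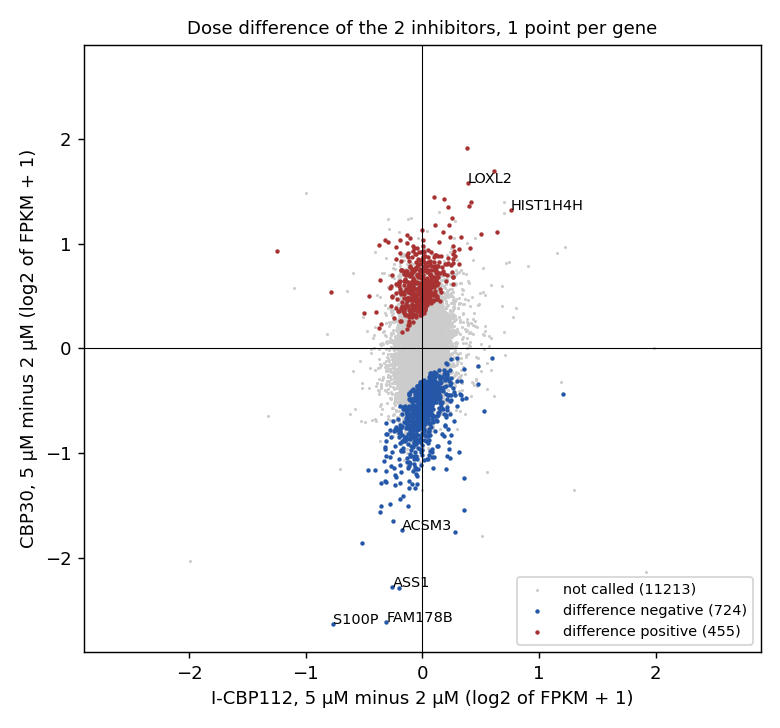
Difference in log2(FPKM + 1) between 5 and 2 µM for I-CBP112 (horizontal axis) and for CBP30 (vertical axis), 1 point per gene without EEF1A1, on equal axes. Genes whose steps differed between the inhibitors are blue (724, more negative with CBP30) or red (455, more positive), and the points spread along the vertical axis.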

How the data were processed

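Total polyadenylated RNA of K562 cells was sequenced by the authors as stranded single reads of 50 bases, and the deposited table gives 1 FPKM value per gene and sample, replicates not pooled. The submitters' processing notes name TopHat2 2.0.10, Bowtie 1.0.0, SAMtools 0.1.19, Cufflinks 2.2.1 and Cuffnorm with the hg19 (GRCh37) build, and the paper names the Nextpresso pipeline. FPKM hold no depth, so no counting error was derived and the precision is that of 2 samples per group.

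Of 23284 genes, those averaging 0.5 FPKM or more across all 10 columns were kept, and 396 small RNA genes were left out, which gave 12392. Values were analysed as log2(FPKM + 1), a scale that understates changes of low genes, with limma 3.58.1 in R 4.3.3 (lmFit, contrasts.fit, eBayes with trend), all 5 groups in 1 fit with 5 residual and 3.85 prior degrees of freedom. Adjusted p are Benjamini-Hochberg values over all genes tested, from this limma fit, and p-values measure the spread between these samples, labelled biological replicates of a cell line. A gene was called at an adjusted p under 0.05 with both 5 µM samples beyond both 2 µM samples. That condition removed no gene. Differences are those of group means on the log2 scale, with standard errors, and percentages are ratios of mean FPKM.

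Transcript lengths came from GENCODE transcripts lifted to GRCh37, matched for 94.8% of the genes tested, and the trend of each sample's deviation with log2 length was removed by lowess (span 0.3). The fit was tested on simulated data.

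Named genes were the 12 largest falls and 12 largest rises among called genes reaching 5 FPKM in their higher group that kept their call with the length trend removed (or had no length), the genes the study names with 3 reference genes, up to 4 genes with the largest differences in each list and all 7 raised by BET inhibitors, and a gene at 0 in 1 CBP30 sample and above 100 FPKM in the others. The comparison, its members, the naming rule and the gene lists were chosen with earlier results of these data known. A few genes that the rule names are not reported here. No set test was run. Promoters came from RefSeq (GRCh38.p14). Plots were drawn with matplotlib 3.10.9 and tables joined with pandas 2.3.3 under Python 3.11.15. The other experiments of the study were not analysed here.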

Additional observations from a re-analysis of the deposited data

Results flagged for a closer look

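The step from 2 to 5 µM differed between CBP30 and I-CBP112 for 1179 genes in the test of that difference (limma, adjusted p under 0.05), and 24 of them are among the largest changes or the genes the study names. The largest changes were chosen by the CBP30 difference, which is part of this test, so their passing it is no separate support. The values below are the CBP30 difference minus the I-CBP112 difference on the log2(FPKM + 1) scale. The most negative were FAM178B (−2.31), LOC731779 (−2.09), IGFL2 (−2.03) and ASS1 (−2.02), followed by EIF4EBP3 (−1.90), S100P (−1.87), ACSM3 (−1.55), ATF5 (−1.40), LPPR3 (−1.38) and MS4A3 (−1.35). GAL (−1.20) and GLT25D2 (−1.15) were the smallest among the 12 largest falls, and the transcription factor genes GATA1 (−0.72), MYC (−0.65) and MYB (−0.31) differed by less. On the positive side were LOC100132741 (1.53), HIST1H2BF (1.34), LOXL2 (1.19), IL6ST (1.13) and HIST1H2AI (1.08), then S1PR3 (1.00), HIST1H1D (0.99), AIM1 (0.96) and HIST1H4H (0.56). HIST1H2AD, HIST1H3B and ZBED6 did not pass this test. The 2 µM CBP30 replicate with the length trend enters each of these values, and its part in them was not tested gene by gene.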

How the results depend on the processing

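The counts of genes lower and higher at 5 µM (2967 and 2462) stayed within 1.5 times their value under another pseudocount, filter, centring, quantile normalization (2662 and 2771, which turned the balance to higher), no variance trend, small RNA genes kept, and the length trend removed with or without GC content. They were 158 and 90 in the 4 CBP30 samples alone (4266 genes at an unadjusted p under 0.05), and 940 and 875 there with the length trend removed. Leaving out 1 sample gave 1048 to 4463 lower and 738 to 3748 higher genes. The extremes were without 5 µM replicate 2 and without 2 µM replicate 2, and without 5 µM replicate 1 the counts were 1183 and 852. Without 2 µM replicate 1 they were 2705 and 2173.

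The count of genes whose step differed between the inhibitors (1179) was 491 with no filter on low values, 632 with small RNA genes kept, 2054 with length and GC trends removed, and 1952 with the length trend removed and without 2 µM CBP30 replicate 1. Leaving out 1 sample gave 55 (without 5 µM CBP30 replicate 2) to 7176 (without 2 µM CBP30 replicate 2), with 62 without 5 µM CBP30 replicate 1, 2963 without 2 µM CBP30 replicate 1, 253 without a DMSO sample and 59 to 96 without an I-CBP112 sample. A DMSO sample has no weight in the step, so leaving it out changes no difference, only the shared spread and its degrees of freedom. The cause of the other changes in the count was not tested.

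When a replicate block was added to the fit, there were 2861 lower and 2357 higher, and 703 for the step. Correlations of same-numbered deviations ran from −0.283 to 0.154, so the numbers were not taken to pair samples.

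Differences that turned sign were mostly of genes not called. GAPDH (−0.11) was 0.30 with quantile normalization, 0.19 with the length trend removed, with or without the block, 0.23 with GC content added and 0.16 also without 2 µM replicate 1. HIST1H1C (−0.08) was 0.42, 0.28, 0.32 and 0.38 under the same settings, and −0.37 to 0.21 with 1 sample left out. HIST1H2BK (0.02) was −0.18 to 0.22 with 1 sample left out. EEF1A1 (6.05, from the value of 0) was −0.30 to 12.40 with 1 sample left out, and −0.30 also with the length trend removed. With the length trend removed, TBP (−0.21, called) was 0.00077, with the block and in the 4 samples too. With GC content as well, BAX (−0.41, called) was 0.043. With the length trend removed and without 2 µM replicate 1, BAX was 0.022, IGF2BP1 (0.25) −0.16 and KRT19 (−0.26) 0.21. The alternatives that join a left-out sample, or a known transcript length, to the length correction were chosen after seeing the data.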
